A study of Mus musculus with 79 samples.

Results

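Clone E3, a mouse embryonic stem cell clone in which a transient enhancer of the Hoxb locus was deleted, was compared with G4, a clone that kept that enhancer, after 74 h of retinoic acid. The 4 libraries, 2 of E3 and 2 of G4, were chosen by their labels and are 4 of 79 in the series. Both clones derive from the wild-type line E14, carry the genotypes E14;HoxTransEdel and E14;HoxTransEwt, grew with serum and leukemia inhibitory factor, and received 1 uM retinoic acid. Nuclear RNA was depleted of ribosomal RNA and sequenced as paired reads. A further deletion clone, H12, has 2 libraries at 74 h, all 3 clones were sampled at 7 times from 0 h on, and total RNA of E14 cells was sampled up to 72 h (74 h in the sample characteristics). The study asks what an enhancer that contacts its promoters only for a time contributes to the activation of developmental genes. E3 and G4 are 1 clone each, so effects of the deletion and differences between clones cannot be told apart. The position of the deleted element is not given in the sources used here, and no gene was targeted, so the labels could not be checked against a lost transcript.

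Retinoic acid enters the cell, is carried to nuclear receptors that sit on DNA as heterodimers, and turns on genes such as those of the Hox clusters, which encode homeodomain factors that give cells their position along the body axis. Hox genes are activated in the order in which they lie on the chromosome, and enhancers inside and beside the Hoxb cluster respond to retinoic acid. In culture, embryonic stem cells treated with retinoic acid leave pluripotency and form mixtures in which neural and extra-embryonic endoderm-like cells are common.

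Over the transcript chosen for each gene, the compared libraries held 6776371 and 8628014 reads in E3 and 9241562 and 7430899 reads in G4. Levels are given as CPM, read counts scaled to a common library size, and differences as log2 fold change of E3 over G4 ± an approximate SE. Reads were counted over whole gene spans, so CPM values compare libraries and not genes of different length. The root mean square log2 difference between libraries over 11806 genes was 0.258 between the E3 libraries and 0.297 between the G4 libraries, and 0.339 to 0.511 between E3 and G4, with G4 replicate 2 the farther G4 library from both E3 libraries. In these bulk samples, fewer cells of a type and less RNA per cell cannot be told apart. Nothing in the labels says that the duplicates came from separate cultures, so p-values measure the spread between these libraries.

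At 74 h the E3 libraries had less RNA of neuronal genes, of several Hoxb genes and of 4 imprinted genes. They had more RNA of some matrix genes, of Krt7, Anxa2 and Lgals1, and of the cadherin genes Cdh1 and Cdh3. In all, 225 genes were called higher and 470 lower in E3 of 15923 tested (4.36% of genes, 1.41% higher and 2.95% lower), 129 and 240 of them at least 2-fold. A call is an adjusted p under 0.05 in edgeR's quasi-likelihood test, with the spread estimated over all 21 groups of the clone table. The libraries of all 695 called genes did not overlap between clones, which held for 49.7% of genes tested. The number of calls changed to unequal degrees when single libraries were left out. Leaving out a library also leaves its group without a replicate, which by itself lowers the power of the test. Leaving out E3 replicate 1 gave 126 higher and 211 lower, leaving out E3 replicate 2 gave 33 higher and 171 lower, leaving out G4 replicate 1 gave 305 higher and 440 lower, and leaving out G4 replicate 2 gave 11 higher and 146 lower. Among 41 higher genes chosen by a fixed rule, 36 lost their call without E3 replicate 2 and 39 without G4 replicate 2, with adjusted p from 0.0516 to 0.784 where a call was lost. Of 35 lower genes chosen by it, 19 kept their call without each library in turn.

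**Figure D1:**
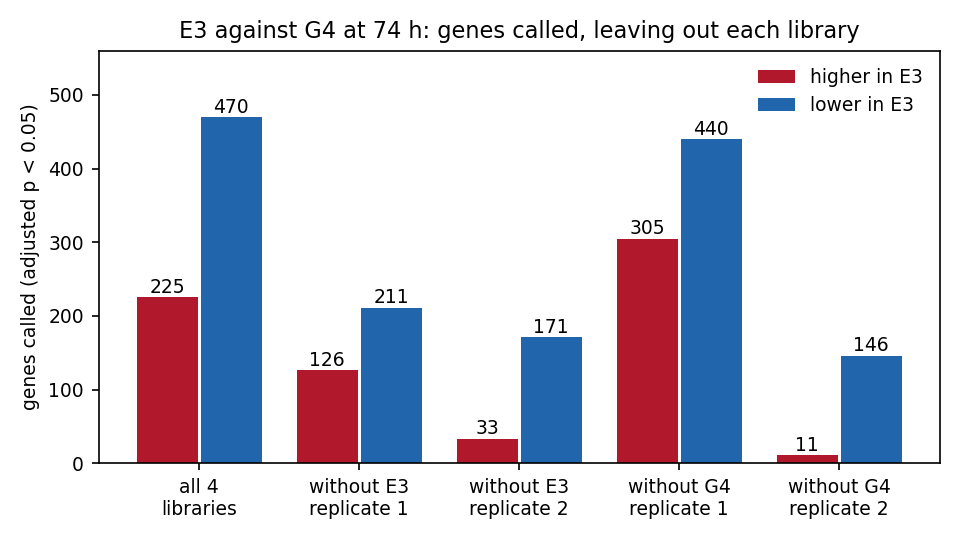
Number of genes called higher (red) and lower (blue) in E3 against G4 at 74 h, with all 4 libraries and without each library in turn. The count of higher genes is 225 with all libraries and 11 without G4 replicate 2, while 146 lower genes are called without that library.

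Of the Hoxb genes, Hoxb3 had the largest decrease, and it was the only member called without each library in turn. Hoxb3 (chromosome 11, 96323126 to 96347930, mm10) had 152 and 140.4 CPM in E3, against 289 and 353 CPM in G4. Both E3 libraries lay far below both G4 libraries (log2 fold change -1.13 ± 0.18, adjusted p = 0.000157), and without each library in turn the adjusted p ranged from 0.000458 to 0.0146. Of 10 measured members 4 were called lower and 0 higher, beside 2.95% of all genes called lower. The median log2 fold change was -0.85, against -0.01 over all genes tested.

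Among the genes at the late, posterior end of the cluster, Hoxb8 (chromosome 11, 96281905 to 96285325) had 17.6 and 20.4 CPM in E3, against 35.5 and 33.8 CPM in G4 (-0.86 ± 0.26, adjusted p = 0.0492). Hoxb9 (chromosome 11, 96271330 to 96276593) had 11.5 and 14.7 CPM in E3, against 21.6 and 23.4 CPM in G4 (-0.77 ± 0.22, adjusted p = 0.0435). Neither gene's libraries overlapped between clones, but both adjusted p values sat just under the threshold and rose above it without each library in turn, to 0.254 and 0.293 without E3 replicate 1, 0.191 and 0.106 without E3 replicate 2, 0.133 and 0.0783 without G4 replicate 1, and 0.227 and 0.335 without G4 replicate 2. Hoxb5os (chromosome 11, 96291037 to 96306910), a noncoding transcript that overlaps Hoxb5 and Hoxb6 on the other strand, had 27.8 and 30.2 CPM in E3, against 49.6 and 60.6 CPM in G4 (-0.92 ± 0.25, adjusted p = 0.0308). Its call was lost without E3 replicate 1 (adjusted p = 0.181), E3 replicate 2 (0.184) and G4 replicate 2 (0.387). Whether counting used the strand is not given in the sources used here, so reads of these overlapping transcripts may be shared.

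The other measured Hoxb genes were not called. Hoxb4 had 36.5 and 39.1 CPM in E3, against 58.0 and 64.8 CPM in G4 (-0.70 ± 0.23, adjusted p = 0.0824). Hoxb5 had 10.1 and 10.1 CPM in E3, against 21.4 and 17.5 CPM in G4 (-0.94 ± 0.29, adjusted p = 0.0539). Hoxb6 had 11.3 and 13.2 CPM in E3, against 28.3 and 20.49 CPM in G4 (-0.99 ± 0.32, adjusted p = 0.0726). In all 3 genes both E3 libraries lay below both G4 libraries, as they did in Hoxb7, with 3.73 and 4.52 CPM in E3, against 7.31 and 7.50 CPM in G4 (-0.83 ± 0.38, adjusted p = 0.253). Such separation, in either direction, held for 49.7% of all genes tested. The most anterior genes of the cluster overlapped or nearly met: Hoxb2 had 20.4 and 26.1 CPM in E3, against 37.4 and 26.0 CPM in G4 (-0.45 ± 0.29, adjusted p = 0.465), and Hoxb1 had 4.97 and 14.1 CPM in E3, against 11.5 and 7.79 CPM in G4 (0.01 ± 0.36, adjusted p = 0.994). Hoxb13, which lies apart from the rest of the cluster, had 5 and 9 reads in E3, against 2 and 1 reads in G4, and was not tested, and Hoxb3os is not in the table. Summed over the 10 measured members, E3 held 296 and 313 CPM, against 559 and 614 CPM in G4. The genes flanking the cluster had a median of 0.15 over 24 measured genes, against -0.85 for the Hoxb genes. Of these 24 flanking genes 0 were called in either direction, beside 4.36% of all genes called.

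In the other Hox clusters Hoxd3 and Hoxd4, which overlap on 1 strand and share reads, were called lower. Hoxd3 (chromosome 2, 74711993 to 74748271) had 114 and 132 CPM in E3, against 237 and 293 CPM in G4 (-1.11 ± 0.22, adjusted p = 0.00253). Hoxd4 (chromosome 2, 74721978 to 74729159) had 42.1 and 45.6 CPM in E3, against 80.1 and 95.1 CPM in G4 (-0.996 ± 0.22, adjusted p = 0.00671). Without G4 replicate 2 their adjusted p values were 0.0933 and 0.156, without E3 replicate 1 they were 0.0618 and 0.0858, and that of Hoxd4 was 0.0698 without E3 replicate 2. They were the 2 called genes of 10 measured in Hoxc and Hoxd (median -0.45), beside 2.95% of all genes called lower. Of 10 Hoxa genes 0 were called, at a median of -0.54, and 9 of the 10 lay below 0. Of 11 Hox cofactors and caudal genes, such as Meis and Pbx genes, 0 were called (median -0.27).

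The retinoic acid pathway itself showed 1 called gene of 22, beside 4.36% of all genes called, at a median of 0.01. Aldh1a2 (chromosome 9, 71215789 to 71296243), which makes retinoic acid from retinal, had 61.4 and 51.7 CPM in E3, against 24.95 and 28.6 CPM in G4 (1.08 ± 0.28, adjusted p = 0.02). The call was lost without each library in turn, while the log2 fold change stayed between 0.94 and 1.19. The hydroxylase gene Cyp26a1, which degrades retinoic acid, had 75.5 and 103 CPM in E3, against 114 and 44.0 CPM in G4, so G4 replicate 2 lay under both E3 libraries and G4 replicate 1 above them. The receptor gene Rarb, itself a target of retinoic acid, had 276 and 277 CPM in E3, against 355 and 330.2 CPM in G4 (-0.31 ± 0.21, adjusted p = 0.497).

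Neuronal genes were the list with the lowest median, -1.33 over 20 measured genes, with 10 called lower and 1 higher. Of all genes tested, 2.95% were called lower and 1.41% higher, at a median of -0.01. Elavl4 (chromosome 4, 110203737 to 110351911), which encodes an RNA-binding protein of neurons, had 27.7 and 29.0 CPM in E3, against 67.4 and 76.5 CPM in G4 (-1.34 ± 0.21, adjusted p = 0.000145). Elavl3 (chromosome 9, 22015005 to 22052023), of the same family, had 10.6 and 9.86 CPM in E3, against 27.2 and 36.6 CPM in G4 (-1.64 ± 0.27, adjusted p = 0.00031). Tubb3 (chromosome 8, 123411564 to 123422010), the neuronal beta-tubulin gene, had 7.46 and 8.08 CPM in E3, against 26.9 and 20.2 CPM in G4 (-1.60 ± 0.23, adjusted p = 5.6e-05). In each of these genes both E3 libraries were below both G4 libraries by more than the replicates differed. Dcx (chromosome X, 143855842 to 143933219), which encodes the microtubule-binding protein doublecortin of migrating neurons, had 6.84 and 3.92 CPM in E3, against 27.2 and 21.5 CPM in G4 (-2.20 ± 0.37, adjusted p = 0.00031). These 4 calls and that of the neurofilament gene Nefl, with 0.777 and 1.54 CPM in E3, against 5.17 and 6.49 CPM in G4 (-2.25 ± 0.43, adjusted p = 0.00128), held without each library in turn.

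Genes further along neuronal differentiation and factors that start it were lower too. Snap25, a subunit of the complex that fuses synaptic vesicles, had 2.95 and 3.56 CPM in E3, against 10.1 and 10.5 CPM in G4 (-1.65 ± 0.38, adjusted p = 0.00763). Map2, of the dendrite cytoskeleton, had 67.1 and 61.1 CPM in E3, against 115 and 123 CPM in G4 (-0.90 ± 0.25, adjusted p = 0.0336). The proneural factors Neurog1 and Neurod1 had low levels, with 4.35 and 3.33 CPM in E3, against 13.8 and 10.5 CPM in G4 (-1.68 ± 0.41, adjusted p = 0.014) and 1.09 and 1.07 CPM in E3, against 3.71 and 3.75 CPM in G4 (-1.77 ± 0.43, adjusted p = 0.011). Gap43, a growth cone gene, went the other way, with 24.6 and 24.6 CPM in E3, against 10.8 and 11.3 CPM in G4 (1.16 ± 0.22, adjusted p = 0.00168). The 9 neuronal genes not called included Ncam1 (-0.30 ± 0.18, adjusted p = 0.399) and Stmn2 (-0.44 ± 0.43, adjusted p = 0.668). Without E3 replicate 1, E3 replicate 2, G4 replicate 1 and G4 replicate 2 the list had 5, 6, 8 and 5 genes lower and 1 higher each time, with medians of -1.21, -1.47, -1.40 and -1.18. Snap25, Map2, Neurog1 and Neurod1 were not called without E3 replicate 1 or without G4 replicate 2.

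**Figure D2:**
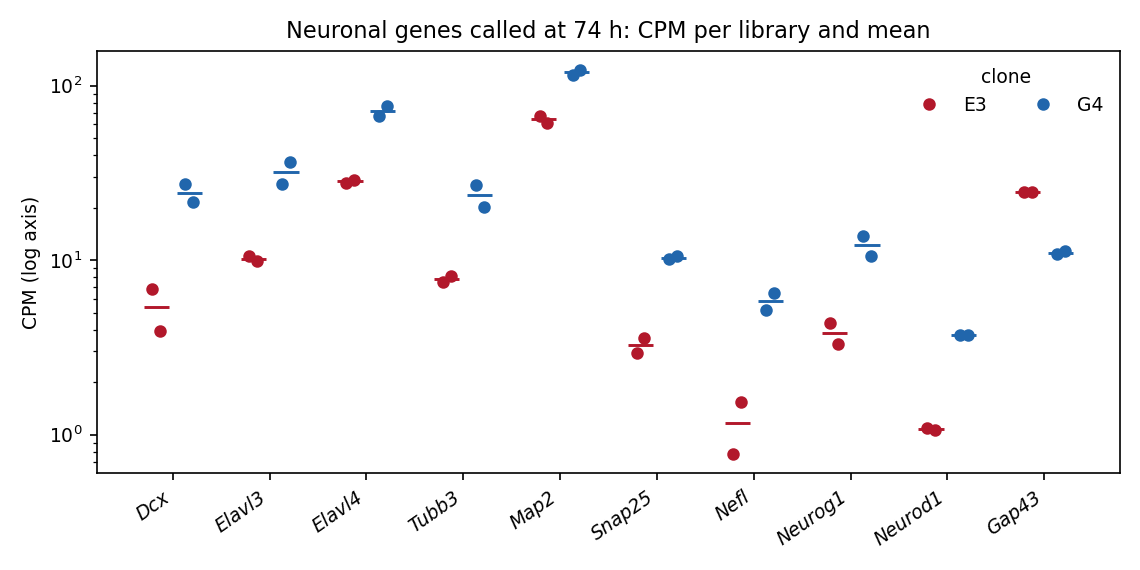
CPM on a log axis of 10 called neuronal genes in each library at 74 h, with E3 (red) left of G4 (blue) and bars at the means of 2 libraries. Both E3 points lie below both G4 points in 9 genes, and in Gap43 they lie above at 24.6 CPM, against 10.8 and 11.3 CPM in G4.

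Elavl3 is shown as an example of these promoters, since proneural factors of the Neurog and Neurod families bind E-box sequences. The RefSeq promoter window of Elavl3 (build GRCm38.p6, chr9:22051974-22052273, minus strand, 250 bases before to 50 after the start), 5′ to 3′, has the E-box CAGCTG in capitals.
Elavl3: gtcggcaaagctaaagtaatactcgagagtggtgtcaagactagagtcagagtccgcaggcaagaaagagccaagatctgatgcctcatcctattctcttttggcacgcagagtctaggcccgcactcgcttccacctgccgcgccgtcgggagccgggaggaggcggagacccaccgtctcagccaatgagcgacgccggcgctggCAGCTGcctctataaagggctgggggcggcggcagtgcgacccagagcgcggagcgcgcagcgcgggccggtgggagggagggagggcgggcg
The motif CAGCTG, which reads the same on both strands, was found in 1 of the 7 called lower neuronal genes with a promoter in the table, namely Elavl3, and in 16.3% of 32851 promoters.

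Transcription factors of neural progenitors had a median of -0.85 over 21 measured genes. Of these, 5 were called lower and 0 higher, beside 2.95% of all genes called lower. Pax3 (chromosome 1, 78101267 to 78197136), a factor of the dorsal neural tube, had 195 and 156 CPM in E3, against 302 and 388 CPM in G4 (-0.97 ± 0.20, adjusted p = 0.00344). Pax6 (chromosome 2, 105668896 to 105698410), which marks neural progenitors, had 43.4 and 44.2 CPM in E3, against 83.5 and 113 CPM in G4 (-1.17 ± 0.25, adjusted p = 0.00426). Pax7 had 9.32 and 9.62 CPM in E3, against 22.9 and 23.2 CPM in G4 (-1.28 ± 0.29, adjusted p = 0.00675). The Irx1 and Dbx1 genes were at low levels, with 1.399 and 1.43 CPM in E3, against 4.50 and 3.46 CPM in G4 (-1.49 ± 0.42, adjusted p = 0.0353) and 1.55 and 3.68 CPM in E3, against 6.74 and 13.4 CPM in G4 (-1.89 ± 0.50, adjusted p = 0.0374). The roof plate factors Lmx1a (-0.07 ± 0.28) and Msx1 (-0.03 ± 0.24) lay near 0, and neither was called. These 5 calls were not made without every library: 1 was left without E3 replicate 1, 0 without E3 replicate 2 and 0 without G4 replicate 2, with medians from -0.96 to -0.75 over the 4 leave-outs. Summed over the list, E3 held 464 and 453 CPM, against 730 and 876 CPM in G4.

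Imprinted genes, which are expressed from 1 parental copy, held the largest decrease of all called genes that the naming rule admits, that of Plagl1. Plagl1 (chromosome 10, 13090788 to 13131695), a zinc finger gene expressed from the paternal copy, had 27.0 and 24.1 CPM in E3, against 443 and 539 CPM in G4 (-4.26 ± 0.26, adjusted p = 2.98e-12). The noncoding transcript Hymai (chromosome 10, 13090845 to 13095900), which lies within the Plagl1 span on the same strand and shares its reads, had 5.13 and 2.85 CPM in E3, against 55.2 and 59.7 CPM in G4 (-3.87 ± 0.31, adjusted p = 6.77e-10). Nnat (chromosome 2, 157560078 to 157562525), which encodes the membrane proteolipid neuronatin and lies inside Blcap on the opposite strand, had 5.91 and 13.5 CPM in E3, against 88.6 and 59.3 CPM in G4 (-2.90 ± 0.31, adjusted p = 6.92e-07). The libraries of the clones did not overlap in any of the 3, and Nnat had the widest spread between replicates for its difference. Nespas (chromosome 2, 174281237 to 174295436), antisense to Gnas, had 94.5 and 82.3 CPM in E3, against 196 and 268 CPM in G4 (-1.39 ± 0.21, adjusted p = 0.00012), and Sgce (chromosome 6, 4674350 to 4747204), a sarcoglycan gene, had 108 and 117 CPM in E3, against 221 and 263 CPM in G4 (-1.11 ± 0.16, adjusted p = 6.02e-05). These 4 imprinted genes and Hymai were called lower without each single library.

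The promoters of Plagl1 and Nnat are shown because imprinting acts through methylation of CG dinucleotides, which stand in capitals. Both are RefSeq windows of GRCm38.p6 on the plus strand, read 5′ to 3′, for Plagl1 at chr10:13090582-13090881 and for Nnat at chr2:157559828-157560127.
Plagl1: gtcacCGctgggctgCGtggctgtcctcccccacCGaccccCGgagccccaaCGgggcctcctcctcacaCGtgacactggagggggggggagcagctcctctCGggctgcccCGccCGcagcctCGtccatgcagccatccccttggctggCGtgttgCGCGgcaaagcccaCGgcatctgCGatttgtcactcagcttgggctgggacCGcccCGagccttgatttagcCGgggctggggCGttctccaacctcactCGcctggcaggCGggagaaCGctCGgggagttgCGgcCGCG
Nnat: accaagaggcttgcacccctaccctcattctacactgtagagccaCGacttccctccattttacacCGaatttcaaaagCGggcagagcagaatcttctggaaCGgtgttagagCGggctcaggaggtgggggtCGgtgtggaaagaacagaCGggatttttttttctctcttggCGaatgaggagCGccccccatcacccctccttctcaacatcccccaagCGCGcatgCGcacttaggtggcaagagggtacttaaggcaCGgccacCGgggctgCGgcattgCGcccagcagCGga
The Plagl1 window holds 26 CG, a number reached by 16.9% of all promoters in the table, and the Nnat window 17, reached by 31.4%, against a median of 7. Methylation was not measured in these libraries.

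The remaining imprinted genes were mostly alike in both clones. Over 34 measured imprinted genes 4 were called lower and 2 higher, at a median of 0.00. Of all genes tested, 2.95% were called lower and 1.41% higher. The growth factor gene Igf2 (chromosome 7, 142650768 to 142661035) was called higher, with 1106 and 1366 CPM in E3, against 716 and 446 CPM in G4 (1.09 ± 0.21, adjusted p = 0.00154). Phlda2, a growth-restraining gene of the placenta, had 6.99 and 14.02 CPM in E3, against 4.72 and 1.88 CPM in G4 (1.64 ± 0.37, adjusted p = 0.00747). Both calls were lost without E3 replicate 2 (adjusted p = 0.0549 and 0.396) and without G4 replicate 2 (0.147 and 0.269). The neighbour of Igf2, H19, had 14.4 and 23.8 CPM in E3, against 17.9 and 13.7 CPM in G4 (0.28 ± 0.25, adjusted p = 0.63). The maternally expressed Grb10 had 1651 and 1444 CPM in E3, against 2151 and 2174 CPM in G4 (-0.48 ± 0.16, adjusted p = 0.0926), and the paternally expressed Mest had 1174 and 1185 CPM in E3, against 1189 and 1070.0 CPM in G4 (0.06 ± 0.22, adjusted p = 0.932), neither of them called.

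The other genes with the largest decreases among those the rule names are given here one by one. Epha5 (chromosome 5, 84054765 to 84417382), a receptor for ephrins in axon guidance, had 2.18 and 4.04 CPM in E3, against 20.01 and 34.9 CPM in G4 (-3.10 ± 0.43, adjusted p = 2.8e-05). Robo3 (chromosome 9, 37416045 to 37433175), a receptor of axons that cross the midline, had 9.95 and 5.58 CPM in E3, against 52.0 and 61.3 CPM in G4 (-2.88 ± 0.35, adjusted p = 4.8e-06). Thsd7b (chromosome 1, 129273304 to 130219278), which encodes a membrane protein with thrombospondin repeats, had 22.4 and 14.6 CPM in E3, against 107 and 86.4 CPM in G4 (-2.40 ± 0.23, adjusted p = 9.18e-08). Both E3 libraries of each gene lay far below either G4 library. Mdga2, a synaptic adhesion gene, had 8.08 and 6.54 CPM in E3, against 29.6 and 44.1 CPM in G4 (-2.34 ± 0.31, adjusted p = 2e-05), and Glra1, a glycine receptor subunit gene, 7.30 and 6.65 CPM in E3, against 35.9 and 32.2 CPM in G4 (-2.29 ± 0.33, adjusted p = 4.8e-05). Clvs1, a lipid-binding protein gene of neurons, had 4.97 and 4.63 CPM in E3, against 23.8 and 21.9 CPM in G4 (-2.25 ± 0.33, adjusted p = 7.65e-05), with Asph on the opposite strand. The calls of these 6 genes held without each library.

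Further genes of the rule were at lower levels. St18, a zinc finger factor, had 1.399 and 1.54 CPM in E3, against 8.32 and 7.21 CPM in G4 (-2.38 ± 0.36, adjusted p = 0.000101), and kept its call without each library. Scrt2, a repressor expressed in new neurons, had 0.932 and 1.78 CPM in E3, against 5.39 and 7.79 CPM in G4 (-2.22 ± 0.44, adjusted p = 0.00195), and Pax5, a factor of the midbrain and of B cells, 0.466 and 1.54 CPM in E3, against 4.61 and 7.36 CPM in G4 (-2.47 ± 0.52, adjusted p = 0.00361). Mir124a-1hg, the host transcript of a miR-124 gene that is abundant in neurons, had 1.86 and 0.832 CPM in E3, against 7.19 and 10.5 CPM in G4 (-2.75 ± 0.50, adjusted p = 0.00102). The calls of Scrt2 and Pax5 were lost without E3 replicate 1 and without G4 replicate 2, and that of Mir124a-1hg without E3 replicate 2, with adjusted p from 0.0617 to 0.0985.

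Of the cadherin and epithelial genes, E-cadherin and P-cadherin RNA was higher in E3. Cdh1 (chromosome 8, 106603368 to 106670246), which encodes E-cadherin, had 313 and 385 CPM in E3, against 203 and 111 CPM in G4 (1.15 ± 0.23, adjusted p = 0.00181). Cdh3 (chromosome 8, 106510852 to 106556911), which encodes P-cadherin, had 153 and 166 CPM in E3, against 93.5 and 68.8 CPM in G4 (0.97 ± 0.19, adjusted p = 0.00171). Cdh4, a cadherin of the nervous system, went the other way, with 84.2 and 80.2 CPM in E3, against 152 and 266 CPM in G4 (-1.34 ± 0.26, adjusted p = 0.00225). These were the called genes of 15 cadherin and epithelial genes, 2 higher and 1 lower, at a median of 0.55. Of all genes tested, 1.41% were called higher and 2.95% lower. N-cadherin, Cdh2, had 1274 and 1146 CPM in E3, against 1659 and 2075 CPM in G4 (-0.63 ± 0.30, adjusted p = 0.295), and was not called. Summed over the list, E3 held 2944.8 and 2851.9 CPM, against 3210.7 and 3765.5 CPM in G4, so the sum lay below G4 in both E3 libraries. Without G4 replicate 2, 0 members were called. Without it the adjusted p of Cdh1, Cdh3 and Cdh4 was 0.167, 0.121 and 0.186, and without E3 replicate 2 it was 0.0551, 0.0362 and 0.0568.

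Matrix genes and genes of the contractile and simple keratin list were higher in part. Of 21 genes of fibrillar collagens and stroma 5 were called higher and 0 lower (median 0.81), beside 1.41% of all genes called higher. Col6a1 (chromosome 10, 76708792 to 76726044), a collagen VI chain gene, had 12.7 and 16.2 CPM in E3, against 5.28 and 4.33 CPM in G4 (1.58 ± 0.41, adjusted p = 0.0186). Fn1 (chromosome 1, 71585473 to 71653234), which encodes fibronectin, had 1023 and 1324 CPM in E3, against 865 and 616 CPM in G4 (0.66 ± 0.18, adjusted p = 0.0285), and Fbln2, of elastic fibres, 22.5 and 29.2 CPM in E3, against 15.4 and 12.6 CPM in G4 (0.89 ± 0.26, adjusted p = 0.0395). The interstitial collagen gene Col1a1, with 214 and 205 CPM in E3, against 104 and 53.4 CPM in G4 (1.401 ± 0.42, adjusted p = 0.0548), was not called although its libraries did not overlap. The libraries did not overlap in 49.7% of all genes tested. Of 18 contractile and simple keratin genes 3 were called higher and 0 lower (median 1.13), beside 1.41% of all genes called higher. The called members were a keratin, an annexin and a galectin gene. Krt7, a keratin gene of simple epithelia, had 22.7 and 18.8 CPM in E3, against 11.9 and 5.63 CPM in G4 (1.22 ± 0.30, adjusted p = 0.0129), Anxa2, which encodes a membrane-binding annexin, 29.1 and 30.9 CPM in E3, against 18.5 and 11.4 CPM in G4 (0.99 ± 0.23, adjusted p = 0.00946), and Lgals1, a galectin gene, 66.5 and 110.3 CPM in E3, against 51.6 and 26.8 CPM in G4 (1.17 ± 0.34, adjusted p = 0.0429).

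These lists differed within G4 as well. G4 replicate 2 lay below replicate 1 in 20 of 21 matrix genes and in 17 of 18 contractile and keratin genes, and its part in the result was not tested beyond leaving it out. Without that library 0 genes of either list were called and the medians were 0.53 and 0.71. Without E3 replicate 2, 0 were called in both lists, with medians of 0.63 and 0.91. Without E3 replicate 1 the medians of both lists were 0.97 and 1.12, and without G4 replicate 1 they were 1.05 and 1.75. Summed levels of the contractile list were 2557.1 and 2414.9 CPM in E3, against 1954.6 and 1653.9 CPM in G4.

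Genes with the largest increases came from no single group. Nrk (chromosome X, 138914430 to 139009090), an X-linked kinase gene known from placenta, had 17.7 and 17.2 CPM in E3, against 5.28 and 4.76 CPM in G4 (1.79 ± 0.27, adjusted p = 8.38e-05), and was the only 1 of the 15 largest increases that was called without each library. Vnn1, which encodes the enzyme pantetheinase, had 6.68 and 8.32 CPM in E3, against 1.91 and 1.44 CPM in G4 (2.14 ± 0.45, adjusted p = 0.00344). Bgn, a small proteoglycan gene of matrix, had 7.15 and 10.8 CPM in E3, against 3.37 and 1.44 CPM in G4 (1.86 ± 0.41, adjusted p = 0.00527), and Icam1, an adhesion receptor gene, 21.9 and 26.3 CPM in E3, against 11.01 and 4.33 CPM in G4 (1.61 ± 0.34, adjusted p = 0.00464). F2rl1, which encodes a receptor opened by proteases, had 10.4 and 14.1 CPM in E3, against 5.28 and 2.60 CPM in G4 (1.61 ± 0.35, adjusted p = 0.00561). Prph, an intermediate filament gene of peripheral neurons, had 4.97 and 8.67 CPM in E3, against 2.59 and 1.59 CPM in G4 (1.69 ± 0.37, adjusted p = 0.00464), and Mt2, a metallothionein gene, had 6.84 and 23.6 CPM in E3, against 4.38 and 2.74 CPM in G4 (2.10 ± 0.62, adjusted p = 0.0493), with the E3 libraries far apart. Others were Lrrc15 (1.89), Igsf1 (1.81), AU018091 (1.70), Adra2b (1.69), Wfdc2 (1.66), Phlda2 (1.64) and Sh3rf2 (1.62), all log2 fold changes. Of these 15, 14 lost their call without E3 replicate 2, 14 without G4 replicate 2, 4 without G4 replicate 1 and 2 without E3 replicate 1, at adjusted p from 0.0544 to 0.784.

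Of 15 targets of p53, the factor that responds to DNA damage, 5 were called higher and 0 lower, beside 1.41% of all genes called higher. All 15 lay above 0 (median 0.61). Trp53inp1, which promotes p53 activity, had 161 and 135 CPM in E3, against 78.2 and 65.4 CPM in G4 (1.04 ± 0.24, adjusted p = 0.00934). Mdm2, which marks p53 for destruction, had 193 and 148 CPM in E3, against 122 and 108 CPM in G4 (0.57 ± 0.16, adjusted p = 0.0317). Eda2r, a death receptor gene, had 129 and 114 CPM in E3, against 69.3 and 58.1 CPM in G4 (0.93 ± 0.23, adjusted p = 0.0149), Cdkn1a, a cell cycle inhibitor gene, 82.1 and 63.0 CPM in E3, against 45.3 and 35.8 CPM in G4 (0.83 ± 0.24, adjusted p = 0.0415), and Sesn2, a stress-induced gene that is also in the integrated stress response list, 90.3 and 73.9 CPM in E3, against 52.8 and 55.0 CPM in G4 (0.61 ± 0.16, adjusted p = 0.025). E3 replicate 1 had the higher E3 value in each of these 5 genes. Of the list, 0 were called without E3 replicate 1 and without G4 replicate 2, with medians of 0.52 and 0.47, 2 without E3 replicate 2 and 4 without G4 replicate 1. Genes of DNA replication and mitosis had 0 calls of 22 and a median of 0.07.

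Markers of other cells that such cultures could hold were read against the 1.41% of all genes called higher and the 2.95% called lower. Of 16 naive pluripotency genes 1 was called higher, Tfcp2l1, with 17.9 and 34.7 CPM in E3, against 14.05 and 10.96 CPM in G4 (1.08 ± 0.32, adjusted p = 0.0467). The summed level of that list was 190 and 280 CPM in E3, against 196 and 185 CPM in G4, and E3 replicate 2 lay above replicate 1 in 15 of 16 genes. Nanog had 1.86 and 11.1 CPM in E3, against 5.51 and 2.02 CPM in G4, and Pou5f1 had 3.11 and 5.58 CPM in E3, against 3.597 and 1.88 CPM in G4. Of 14 general pluripotency genes and 13 genes of the 2-cell-like state 0 were called, at medians of 0.43 and 0.73. Among formative and primed genes 1 of 12 was called lower, Zic5, with 9.17 and 9.15 CPM in E3, against 16.1 and 21.1 CPM in G4 (-1.01 ± 0.25, adjusted p = 0.014). The adjusted p of Tfcp2l1 and Zic5 was 0.717 and 0.152 without E3 replicate 2 and 0.504 and 0.277 without G4 replicate 2, that of Tfcp2l1 0.0773 without G4 replicate 1, and that of Zic5 0.0879 without E3 replicate 1.

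Endoderm transcription factors had 0 calls of 10 (median 0.14), with Gata6 at 37.3 and 45.3 CPM in E3, against 24.6 and 33.8 CPM in G4 and Sox17 at 5.59 and 8.55 CPM in E3, against 5.96 and 6.78 CPM in G4. Of 23 extra-embryonic endoderm products 2 were called higher and 1 lower. Apoe, a lipoprotein gene, had 138 and 236 CPM in E3, against 118 and 85.7 CPM in G4 (0.88 ± 0.25, adjusted p = 0.0414), Ttr, which encodes the thyroid hormone carrier transthyretin, had 1.71 and 2.85 CPM in E3, against 0.674 and 0.433 CPM in G4 (2.00 ± 0.56, adjusted p = 0.043), and Pth1r, a hormone receptor gene of parietal endoderm, 48.8 and 46.6 CPM in E3, against 82.3 and 63.3 CPM in G4 (-0.61 ± 0.18, adjusted p = 0.0434). Of 15 primitive streak and mesoderm genes 1 was called, Foxf1, a factor of lateral mesoderm, with 2.95 and 3.92 CPM in E3, against 0.787 and 0.721 CPM in G4 (2.17 ± 0.59, adjusted p = 0.0349). Of 11 mesothelium genes 3 were higher, namely Aldh1a2, Podxl with 831 and 923 CPM in E3, against 544 and 484 CPM in G4 (0.77 ± 0.20, adjusted p = 0.0214) and Lrrn4 (1.03 ± 0.29, adjusted p = 0.0398), and of 10 trophoblast genes 2, Krt7 and Gata2 with 8.08 and 16.4 CPM in E3, against 5.51 and 4.47 CPM in G4 (1.299 ± 0.30, adjusted p = 0.00773). Blood and endothelial genes had 0 calls of 6, with 34.3 and 44.0 CPM in all in E3, against 31.9 and 31.7 CPM in G4. All calls of this paragraph were lost without E3 replicate 2 and without G4 replicate 2, with adjusted p from 0.0568 to 0.669.

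In the signalling lists the calls were 2 of the Wnt pathway and 1 of the Nodal and BMP pathway, beside 4.36% of all genes called. In the Wnt pathway 2 of 27 genes were higher, the inhibitor gene Dkk1 with 17.9 and 18.4 CPM in E3, against 7.53 and 6.64 CPM in G4 (1.35 ± 0.29, adjusted p = 0.00465) and the ligand gene Wnt6 with 50.5 and 48.1 CPM in E3, against 29.3 and 18.3 CPM in G4 (1.04 ± 0.27, adjusted p = 0.0214). In the Nodal and BMP pathway 1 of 22 was higher, the inhibitory Smad gene Smad7 with 114 and 101 CPM in E3, against 82.5 and 65.6 CPM in G4 (0.53 ± 0.14, adjusted p = 0.0211). These 3 calls were lost without E3 replicate 2 and without G4 replicate 2, and those of Wnt6 and Smad7 also without E3 replicate 1. The FGF pathway had 0 calls of 19, cohesin and CTCF genes 0 of 14, glycolysis genes 0 of 15, immediate early genes 0 of 15, aryl hydrocarbon receptor genes 0 of 8 and nuclear long noncoding RNAs 0 of 8. The integrated stress response had 1 of 16, Sesn2.

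**Figure D3:**
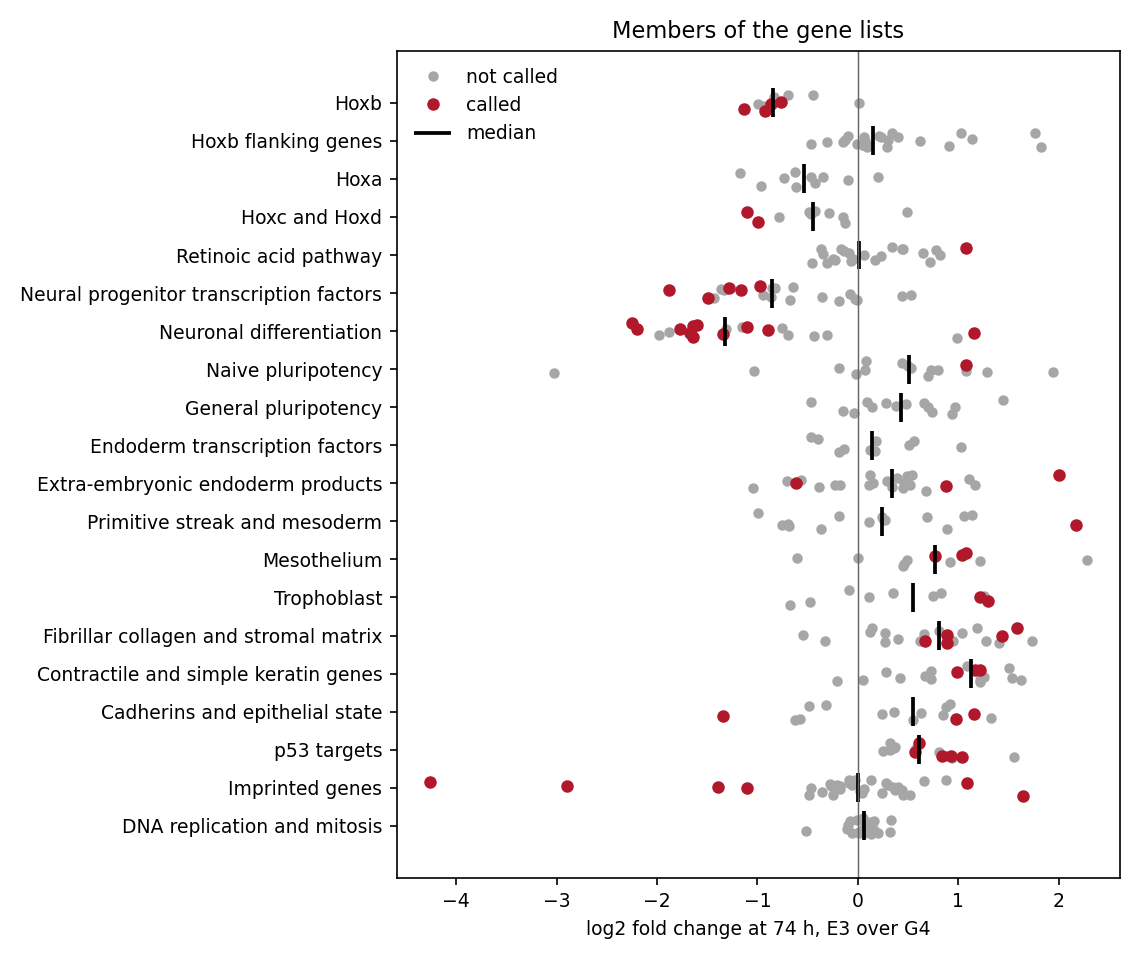
Log2 fold change at 74 h, E3 over G4, of every tested member of 20 gene lists, with called genes in red, other genes in grey and the median as a black bar. The neuronal list has the lowest median, -1.33, the Hoxb and neural progenitor lists lie at -0.85, and the contractile and keratin list has the highest, 1.13.

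Set against earlier times, more genes were called between the clones at 74 h, 695 with all 4 libraries. Single libraries moved this 74 h count, as given above, and the counts of the other times were not tested this way. E3 and G4 differed in 72 genes at 0 h (0.452% of genes), 54 at 2 h (0.339%), 53 at 4 h (0.333%), 81 at 6 h (0.509%), 68 at 24 h (0.427%) and 343 at 48 h (2.15%). The times share no libraries. Of the 343 genes called at 48 h, 211 (61.5%) were also called at 74 h, all in the same direction, and they made up 30.4% of the 74 h calls. Of the 72 genes called at 0 h, 33 (45.8%) were called at 74 h, 32 of them in the same direction. Called at all 7 times were Plagl1, Nnat, Sgce, the Y-linked gene Uty (-1.81 at 74 h), Poc1b (-1.08), Snx18 (-0.55), Kif22 (-0.48) and Zfp646 (-0.55), all lower in E3, and Nrk, which was higher.

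The imprinted genes and Hoxb3 followed different courses. At 0 h Plagl1 had 0.677 and 1.26 CPM in E3, against 10.1 and 7.92 CPM in G4, and at 48 h 7.38 and 10.99 CPM in E3, against 295 and 229 CPM in G4. The libraries of the clones were apart at each of these times. Nnat at 0 h had 1.22 and 1.26 CPM in E3, against 20.9 and 12.3 CPM in G4. Hoxb3 was near 0 in both clones at 0 h, with 0.406 and 0.280 CPM in E3, against 0.128 and 0 CPM in G4, and at 6 h had 10.6 and 10.1 CPM in E3, against 10.4 and 10.6 CPM in G4. At 24 h it had 36.8 and 25.2 CPM in E3, against 48.7 and 69.7 CPM in G4, and at 48 h 72.2 and 86.0 CPM in E3, against 149 and 153 CPM in G4 (log2 fold change -0.93, adjusted p = 0.00372).

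Whether the difference itself changed between 0 h and 74 h was tested as an interaction. It changed in 92 genes (0.578% of genes), towards lower in E3 in 75 (0.471%) and towards higher in 17 (0.107%). Thsd7b at 48 h still had 8.79 and 13.1 CPM in E3, against 10.4 and 13.3 CPM in G4, and the libraries of the clones overlapped (change from 0 h to 74 h -2.24 ± 0.39, adjusted p = 0.00336). Elavl4 at 0 h had 26.7 and 32.3 CPM in E3, against 29.8 and 33.6 CPM in G4 (change -1.24 ± 0.30, adjusted p = 0.0457). Elavl3 at 0 h had 16.5 and 26.4 CPM in E3, against 17.1 and 23.6 CPM in G4 (change -1.72 ± 0.38, adjusted p = 0.0253), and St18 changed by -2.94 ± 0.49, adjusted p = 0.00203. Igf2 at 0 h had 26.3 and 22.4 CPM in E3, against 36.5 and 33.4 CPM in G4 and changed towards higher in E3 (1.61 ± 0.32, adjusted p = 0.0105). Plagl1 (-1.06 ± 0.64, adjusted p = 0.494) and Hoxb3 (-3.28 ± 1.20, adjusted p = 0.22) did not pass this test. The count changed when single libraries were left out. Among the 74 h libraries it was 56 without E3 replicate 1, 21 without E3 replicate 2, 254 without G4 replicate 1 and 24 without G4 replicate 2. Among the 0 h libraries it was 174 without E3 replicate 1, 27 without E3 replicate 2, 39 without G4 replicate 1 and 58 without G4 replicate 2.

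**Figure D4:**
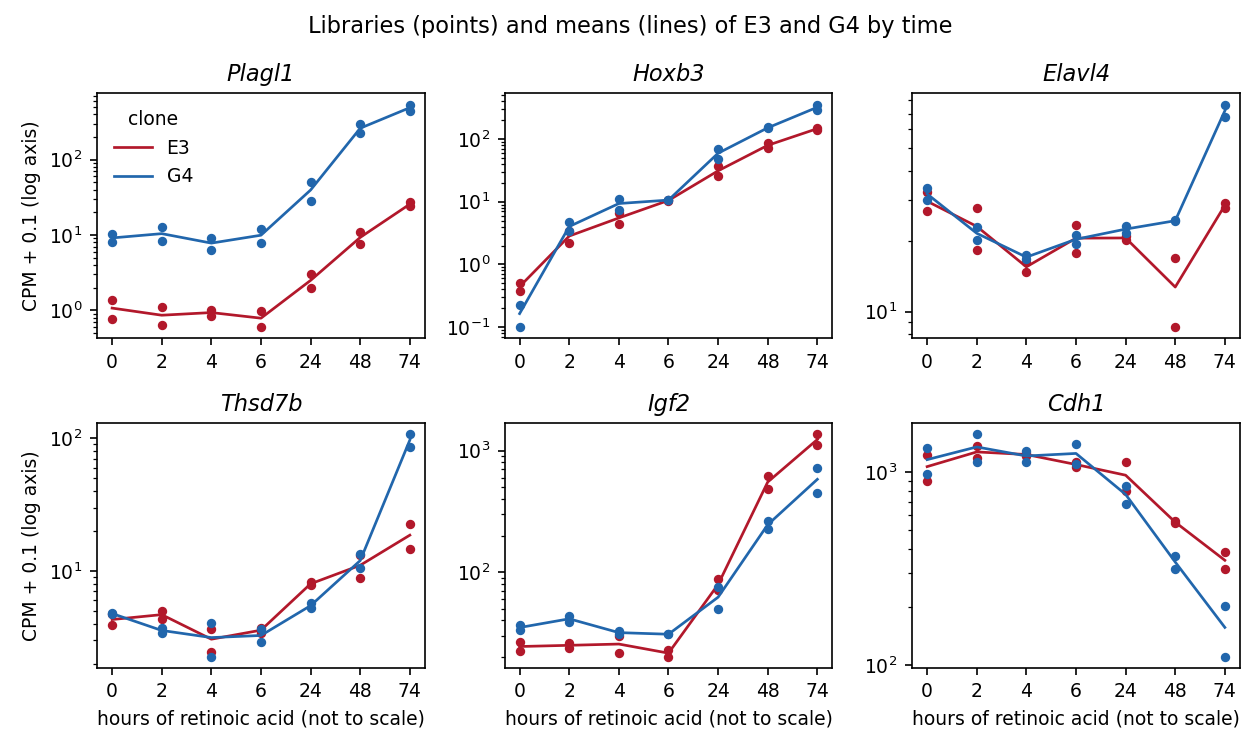
CPM plus 0.1 on a log axis of 6 genes in E3 (red) and G4 (blue) at the 7 times of retinoic acid from 0 to 74 h, with libraries as points and means of 2 as lines. Plagl1 is lower in E3 at every time, Hoxb3 is lower from 24 h, Thsd7b and Elavl4 are at like levels at 24 h and farthest apart at 74 h, and Igf2 is higher in E3 at 48 and 74 h. The Cdh1 points are also apart at both of these times, with an adjusted p of 0.115 at 48 h and 0.00181 at 74 h.

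The E14 time course, whose libraries are separate from the clones, shows how these genes behave in the parental line. In E14 at 72 h against 0 h, 30.4% of 15084 genes tested were called higher and 29.3% lower, and among the 14751 also tested in the clones the shares were 30.6% and 29.7%. Of the genes called lower in E3, 415 were tested in E14, where 184 (44.3%) rose and 91 (21.9%) fell. Of the genes called higher in E3, 219 were tested, where 69 (31.5%) rose and 75 (34.2%) fell. E14 RNA is total and counted over exons, and the clones' RNA is nuclear and counted over whole spans.

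Part of the decreases lay together on chromosomes. In windows of 25 consecutive tested genes, 165 of 15428 windows had a median past 0.5 in size, all of them lower in E3, and they joined into 4 segments. The segments were picked by these same fold changes, so their low medians and many lower calls follow in part from that choice. Over all genes tested, 2.95% were called lower. On chromosome 11, from 55250610 to 62877462, 41 of 108 genes were called lower and 0 higher, with a median of -0.54. The Hoxb cluster, at 96271330 to 96368253 of the same chromosome, lies outside this segment. On chromosome 7, from 123279149 to 128255699, 32 of 104 genes were called lower and 0 higher (median -0.55). On chromosome 15, from 3270767 to 9155425, 7 of 29 were lower (median -0.50), and on chromosome 10, from 96617001 to 109010975, 5 of 25 (median -0.55).

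The segments on chromosomes 7, 11 and 15 also had medians below 0 before treatment. At 0 h these were -0.58, -0.39 and -0.34, while that of the chromosome 10 segment was -0.05. In H12 against G4 at 74 h, 2049 of all 15923 genes tested were called lower. H12 was low in the same segments at 74 h, with medians over G4 of -0.53 on chromosome 7, -0.64 on chromosome 10, -0.49 on chromosome 11 and -0.29 on chromosome 15. In that order, 45 of 104, 9 of 25, 50 of 108 and 9 of 29 genes were called lower. E3 over H12 had medians of -0.04, 0.18, -0.09 and 0.02 in that order. G4 had the higher median level against each deletion clone there, and the G4 libraries are common to both comparisons. Glra1, named above, and the antisense gene Map2k3os lie in the chromosome 11 segment, with the lowest log2 fold changes of its called genes. Map2k3os had 1.399 and 1.66 CPM in E3, against 5.17 and 8.51 CPM in G4 (-2.11 ± 0.42, adjusted p = 0.00195), and an adjusted p of 0.0793 without G4 replicate 2. Plcxd3, a phospholipase-like gene, lies in that of chromosome 15, with 4.04 and 4.52 CPM in E3, against 15.4 and 16.6 CPM in G4 (-1.89 ± 0.30, adjusted p = 0.000146). On chromosome 10, Poc1b, a centriole gene, had 66.0 and 64.3 CPM in E3, against 130.0 and 146 CPM in G4 (-1.08 ± 0.15, adjusted p = 2.75e-05). Rai1 (-1.08 ± 0.17, adjusted p = 0.000158) on chromosome 11 and Srcap (-0.77 ± 0.14, adjusted p = 0.000761) on chromosome 7, chosen after their values were seen, are chromatin genes in these segments. On chromosome Y, 3 of 9 tested genes were called lower, beside 2.95% of all genes tested. Among the 3 was Uty, with 25.9 and 26.4 CPM in E3, against 80.7 and 103 CPM in G4 (-1.81 ± 0.20, adjusted p = 1.25e-06). Unlike in the segments, the clones went opposite ways there. The chromosome Y median at 74 h was -0.95 in E3 over G4 and 2.39 in H12 over G4. The number of gene copies was not measured. Outside the segments 225 genes were higher and 385 lower.

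**Figure D5:**
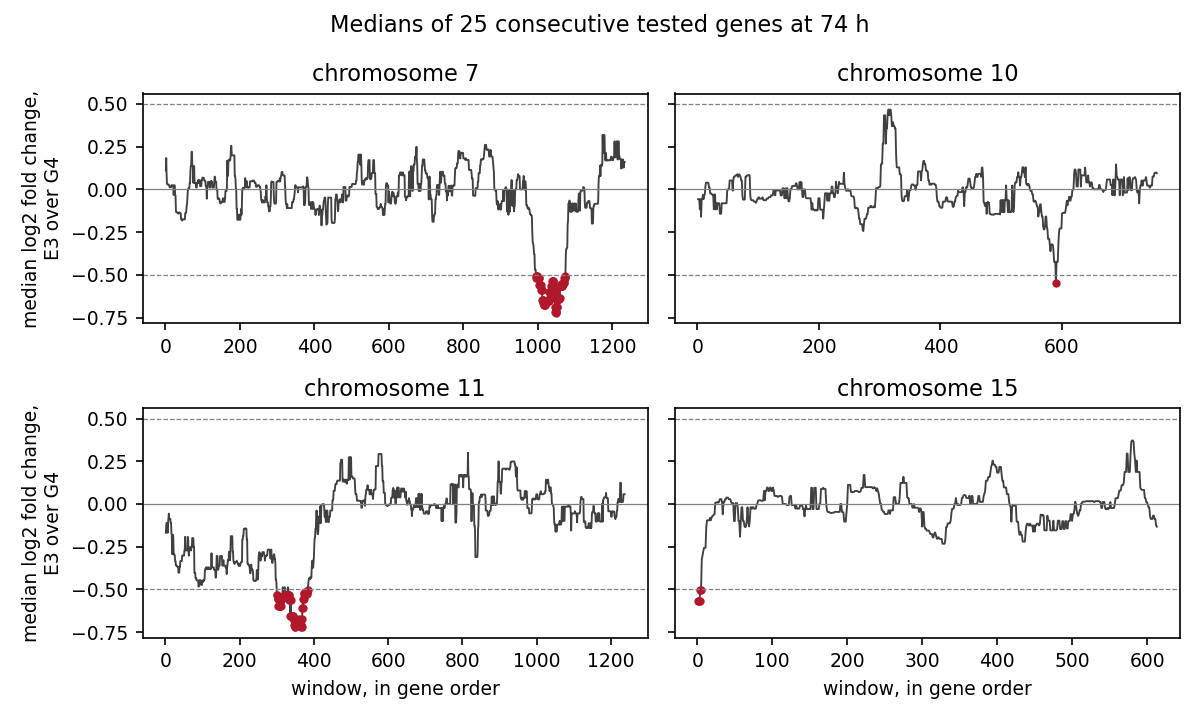
Median log2 fold change at 74 h, E3 over G4, of windows of 25 consecutive tested genes on chromosomes 7, 10, 11 and 15, in gene order, with windows past the dashed limit of 0.5 in red. Runs of red windows, all below 0, mark the segments on chromosomes 7 and 11, with medians of -0.55 and -0.54 over their genes.

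H12, the other deletion clone, was set beside E3 for the genes above. E3 differed from H12 in 1230 genes, 525 higher and 705 lower in E3 (7.72% of genes, 3.3% higher and 4.43% lower), and H12 differed from G4 in 3999 genes (25.1%); both comparisons share libraries with that of E3 and G4. The count of E3 against H12 was 467 without E3 replicate 1 and 762 without H12 replicate 1. Hoxb3 had 89.8 and 101 CPM in H12 and log2 fold changes of -1.13 in E3 and -1.75 in H12 against G4. It was higher in E3 than in H12 (0.61 ± 0.18, adjusted p = 0.0306). Of 10 measured Hoxb genes 4 were called lower in H12 against G4, with a median of -0.67, beside 2049 of all 15923 genes. Hoxb9, at 19.1 and 27.0 CPM in H12, was not (0.04, adjusted p = 0.916), and was lower in E3 than in H12 (-0.81 ± 0.23, adjusted p = 0.0212). Hoxb8 was not called in H12 against G4 either (-0.62, adjusted p = 0.0737). Plagl1 had 66.6 and 115 CPM in H12, with -4.26 in E3 and -2.43 in H12, and E3 was lower than H12 (-1.83 ± 0.25, adjusted p = 5.03e-06). Elavl4 had 12.9 and 19.05 CPM in H12, and E3 was higher than H12 (0.82 ± 0.22, adjusted p = 0.0182). Nefl had 6.59 and 8.12 CPM in H12, and E3 was lower (-2.60 ± 0.42, adjusted p = 6.73e-05). Aldh1a2 and Igf2, higher in E3 than in G4, were also higher than in H12. Aldh1a2 had 10.3 and 6.16 CPM in H12 (E3 over H12 2.79 ± 0.31, adjusted p = 1.52e-07), and Igf2 had 501 and 330.1 CPM in H12 (1.57 ± 0.21, adjusted p = 4.29e-06). Cdh1 had 406 and 294 CPM in H12 and the test of E3 against H12 was not passed (adjusted p = 0.995). Extra-embryonic endoderm products summed to 6240.4 and 7559.5 CPM in E3, 30863 and 33509 CPM in H12 and 5666.6 and 6075.8 CPM in G4, and 19 of 23 were lower in E3 than in H12.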

How the data were processed

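Nuclear RNA of 3 clones at 7 times, with 2 libraries each, and total RNA of E14 cells were sequenced by the authors from ribosomal RNA-depleted, directional libraries with a Drosophila spike-in, per the labels' protocols. STAR, Bowtie2, SAMtools and DESeq2 and the builds mm10 and dm6 are named in the submitters' processing notes, without versions. The counting program and its use of strand are not given in the sources used here. The deposited values are signal, gene read counts divided by a size factor per library, over whole spans in the clones and over exons in E14. Whole reads were recovered from this deposited signal, within 0.1 read for 100% of values in the clones and at least 99.9966% in E14, and so the test planned for counts was used. Over the transcript chosen for each gene, clone libraries held 4754309 to 10450047 reads and E14 libraries 2352114 to 21082331.

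The transcript with the highest mean share of reads stood for each gene symbol. edgeR 4.0.16 (R 4.3.3, limma 3.58.1, statmod 1.5.0) fitted its robust quasi-likelihood model with TMM scaling to all 42 clone libraries, after its filter on low counts had kept 15923 genes. This fit has 21 residual degrees of freedom. Genes were called at an adjusted p under 0.05 (Benjamini-Hochberg over all genes tested), and the approximate SE was obtained as the absolute change over the root of the F statistic. The fit was tested on simulated data.

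Named genes were the 15 largest changes in each direction among called genes of at least 2-fold with libraries that did not overlap and at least 5 CPM in the higher group, all Hoxb genes, up to 4 called genes per list and direction with the lowest adjusted p, 5 by change from 0 h to 74 h, and 3 per direction in the chromosome segments. Other members were added as examples of their lists. Some genes that the rule names are not reported here. The members and lists were chosen with earlier results of these data known. Promoters come from RefSeq (GRCm38.p6). Alternatives were other scalings, filters and tools, including DESeq2 1.42.0, a replicate block, other sets of libraries, the longest transcript and leaving out each library.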

Additional observations from a re-analysis of the deposited data

Results flagged for a closer look

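The difference between E3 and G4 changed between 0 h and 74 h of retinoic acid in 92 genes by edgeR's interaction test, and 10 of the genes described above are among them. Of genes that became lower in E3, the change on the log2 scale was -4.35 for Scrt2 (adjusted p = 0.0447), -2.94 for St18 (0.00203), -2.24 for Thsd7b (0.00336), -1.72 for Elavl3 (0.0253) and -1.24 for Elavl4 (0.0457). Scrt2 was near 0 at 0 h, with means of 0.62 CPM in E3 and 0.13 CPM in G4. Its change includes a 0 h difference of 2.13 ± 0.95 that was not called (adjusted p = 0.514). Of genes that became higher in E3, it was 1.98 for F2rl1 (0.0218), 1.96 for Phlda2 (0.0467), 1.83 for Icam1 (0.0479), 1.61 for Igf2 (0.0105) and 1.08 for Fn1 (0.0421). Groups of 2 libraries are too small to single out a library that stands apart.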

How the results depend on the processing

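The 695 genes called between E3 and G4 at 74 h became 706 with median-of-ratios scaling, 695 with the authors' size factors, 658 with no filter on low counts, 674 with DESeq2, 569 with limma-trend, 557 with limma on log2(signal + 1), 990 with the 4 compared libraries alone, 511 with the 6 libraries at 74 h, 703 with the longest transcripts and 610 without the genes of the 4 chromosome segments, a setting chosen after seeing the data. Leaving out 1 library gave 157 to 745. Same-numbered E3 and G4 libraries at 74 h did not deviate together (r = -0.168 over genes), and of 210 pairs of groups 90 had r over 0.1 (median 0.0823), so the numbers were not taken to pair the libraries. A replicate block gave 1071 calls over all 42 libraries, with 7 Hoxb genes lower. With it, 11 genes of the matrix list and 11 of the contractile and keratin list were higher. The block gave 1119 calls over 4 libraries, and the crossed pairing, chosen after seeing the data, gave 2066. The 92 genes whose difference changed from 0 h became 198 with DESeq2 and 308 with the replicate block, and 21 to 254 without 1 library. E3 against H12 gave 467 to 842 calls without 1 library, against 1230 with all. The share of calls that were higher was 32.4%, and it was 42.4% with limma on log2(signal + 1), 41.3% and 47.5% with the replicate block over 42 and over 4 libraries, 50.9% with the crossed one, and 7.01% to 40.9% without 1 library, lowest without G4 replicate 2 and 16.2% without E3 replicate 2. Hoxb1, which was never called, turned to -0.0118 with no filter, -0.000931 with DESeq2, -0.16 with limma-trend, -0.15 with limma on log2(signal + 1) and -0.0417 and -0.0779 with the replicate block over 42 and over 4 libraries, and ranged from -0.97 to 0.53 without 1 library, below 0 without E3 replicate 2 and, at -0.24, without G4 replicate 2; the cause was not tested. Of 76 called genes named by the rule, 57 lost their call in at least 1 of 15 settings. Single libraries moved the count at 74 h further than scaling or the filter did.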
